A study of Mus musculus with 10 samples.

Results

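The genes described here are brakes of the cell cycle and targets of the tumour suppressor p53, measured in clonal lines of 3T3-L1, a mouse fibroblast line that can turn into fat cells. They were taken as a fixed list of 31 gene symbols, each read from the brightest probe set that names that gene alone. Of the 31 members, 28 had such a probe set, out of 19937 genes measured in all. Cdkn1a, which encodes p21, shares its probe set with 4930567H12Rik, and Bax and Trp53 had none in the annotation used here, so these 3 members were not analysed. All 28 measured members also passed the filter on dim genes, and 16339 genes in all were tested. A gene passed when its signal exceeded the 25th percentile of all probe sets on 5 or more arrays of the 10.

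The samples were 5 lines of high adipogenic potential (High) and 5 of low adipogenic potential (Low), each 1 array of RNA from 1 clone. The clone numbered High replicate 1 was 3F4, and those numbered 2 to 5 were 4D2, then 4E3, then 5C4 and last 5D4. The clone numbered Low replicate 1 was 1E7, and those numbered 2 to 5 were 2D7, then 2F1, then 4D11 and last 4H4. The class came from triglyceride stored after insulin, dexamethasone and IBMX were given to each line. The arrays themselves measured untreated cells that were still dividing in DMEM with 10% serum, below confluence, with no genetic change named for either class. A clone grown from 1 cell stands for itself, so the spread among lines holds clonal and technical differences together.

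Cell cycle inhibitors of the INK4 family bind the kinases CDK4 and CDK6 and keep them from pairing with D cyclins, while p27, the product of Cdkn1b, also binds CDK2 complexes. When these kinases are held back, the pocket proteins encoded by Rb1, Rbl1 and Rbl2 stay unphosphorylated and keep E2F factors silent. The Cdkn2a locus gives both an INK4 inhibitor and, from another first exon and reading frame, Arf, which blocks Mdm2 and so lets p53 accumulate. In preadipocytes, exit from the cell cycle comes before the fat cell programme, and p27 and the pocket proteins are known to take part in that exit.

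The annotated starts of the Cdkn2a and Cdkn2b genes are shown first, because the state of this locus is the first question. Their 250 upstream bases are from RefSeq on GRCm38.p6, minus strand, with each CG dinucleotide in capitals. The first lies at chr4:89294620-89294869, the start nearer to Cdkn2b, from which the Arf first exon is read. The next lies at chr4:89282193-89282442, at the first exon of the INK4 transcript. The third lies at chr4:89311033-89311282, upstream of Cdkn2b.
Cdkn2a, start nearer to Cdkn2b: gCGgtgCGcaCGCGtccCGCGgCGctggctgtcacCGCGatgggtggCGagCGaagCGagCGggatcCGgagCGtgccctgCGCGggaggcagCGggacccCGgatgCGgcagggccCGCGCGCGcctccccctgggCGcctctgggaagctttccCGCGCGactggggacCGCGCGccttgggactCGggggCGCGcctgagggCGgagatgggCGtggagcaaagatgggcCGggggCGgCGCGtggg
Cdkn2a, other start: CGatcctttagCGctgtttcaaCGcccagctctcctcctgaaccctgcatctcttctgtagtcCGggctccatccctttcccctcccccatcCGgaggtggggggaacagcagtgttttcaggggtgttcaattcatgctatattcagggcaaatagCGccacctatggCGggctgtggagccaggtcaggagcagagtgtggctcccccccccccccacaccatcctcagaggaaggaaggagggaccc
Cdkn2b: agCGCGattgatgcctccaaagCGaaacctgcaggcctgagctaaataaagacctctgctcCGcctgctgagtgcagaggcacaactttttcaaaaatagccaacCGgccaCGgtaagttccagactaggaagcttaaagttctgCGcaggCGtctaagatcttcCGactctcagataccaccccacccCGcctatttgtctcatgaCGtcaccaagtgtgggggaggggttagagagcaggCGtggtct
The upstream windows held 40, 7 and 12 CG dinucleotides in that order, against a median of 6 over 32851 RefSeq promoter windows. The arrays give 1 value for Cdkn2a, so the transcripts from its starts cannot be told apart here.

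Mdm2 and Ccng1 are shown next, because they are classical p53 targets whose promoter windows hold a match to the p53 decamer consensus, the unit that is repeated in a p53 response element, given in capitals. Both are on the minus strand of GRCm38.p6, Mdm2 at chr10:117710759-117711008 and Ccng1 at chr11:40755287-40755536.
Mdm2: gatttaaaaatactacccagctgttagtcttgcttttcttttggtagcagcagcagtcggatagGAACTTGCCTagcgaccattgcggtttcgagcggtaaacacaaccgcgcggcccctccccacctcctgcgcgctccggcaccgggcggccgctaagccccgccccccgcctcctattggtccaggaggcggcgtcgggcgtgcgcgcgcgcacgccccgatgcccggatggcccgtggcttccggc
Ccng1: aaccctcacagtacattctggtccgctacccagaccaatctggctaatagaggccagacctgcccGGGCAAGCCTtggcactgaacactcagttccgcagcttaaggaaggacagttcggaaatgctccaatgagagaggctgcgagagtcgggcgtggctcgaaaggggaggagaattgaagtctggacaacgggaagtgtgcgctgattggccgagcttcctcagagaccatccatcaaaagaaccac
Counted from the start, the decamer began at base -186 in Mdm2 and at base -185 in Ccng1. Searched from 250 bases before to 50 bases after each start, on both strands, the consensus matched in 6 of 29 windows of 23 measured members, or 20.7%. It matched in 8.36% of the 32851 windows of all genes. The other 4 matches were in Ddit4l, Gadd45a, Cdkn2d and 1 of the windows of Sesn1. A match is a description of letters, and 5 measured members had no promoter in the table.

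In the comparison of High with Low lines, 0 of the 28 members passed an adjusted p of 0.05 in limma, where 0.00612% of all tested genes did (1 of 16339). At an unadjusted p under 0.05 there were 0 members as well, against 7.95% of all tested genes (3.16% higher and 4.79% lower in High lines). For no member did the 5 High values lie clear of the 5 Low values, which 1.57% of tested genes showed. Differences were above 0 in 19 members and below 0 in 9, with a median of 0.061, where the median over all tested genes was 0.021 and 58% of them were above 0. The 95% confidence intervals of single members reached from -0.43 to 0.90 on the log2 scale. A missed threshold does not show that the classes were alike.

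**Figure D1:**
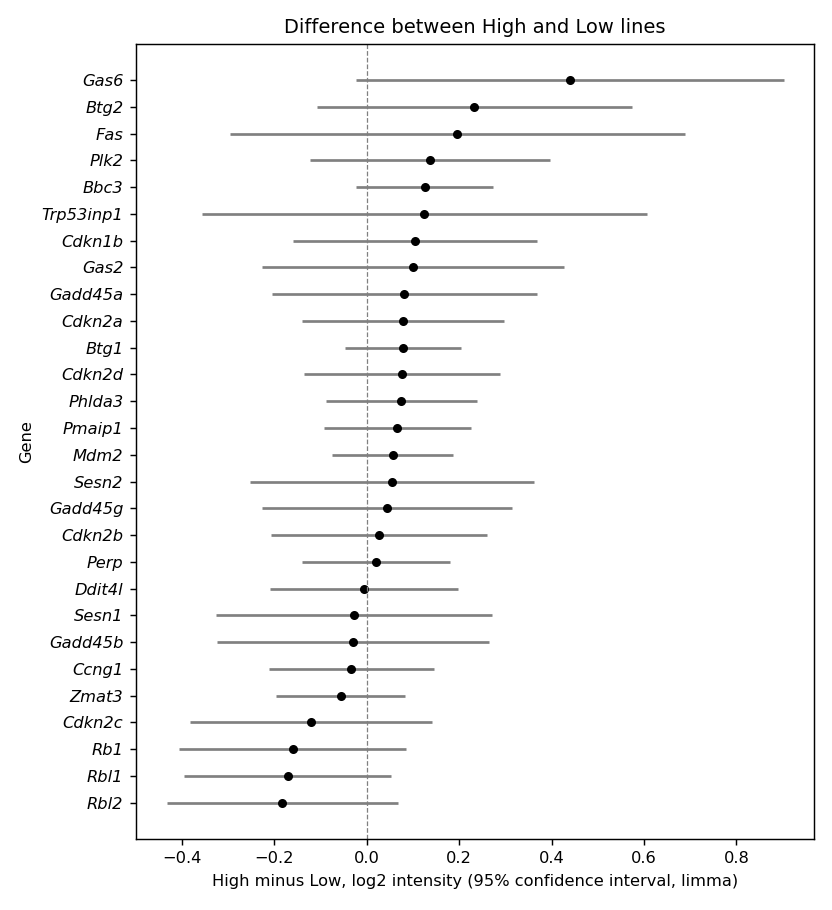
Difference between High and Low lines for each of the 28 measured members, as High minus Low in log2 intensity (horizontal axis), 1 gene per row. Points are limma estimates and lines are 95% confidence intervals, and every interval crosses 0.

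Cdkn2a measured 10.9957, 10.8763, 10.9999, 10.7041 and 11.1141 in High lines, against 10.8247, 10.9869, 10.9012, 10.5585 and 11.0248 in Low lines, on the log2 scale on which all values below stand. Low replicate 4 was lowest and High replicate 5 highest, and the classes overlapped. The High mean was 10.94 ± 0.16 and the Low mean 10.86 ± 0.19 (SD, n = 5 each), a difference of 0.079 (95% confidence interval -0.14 to 0.30), with a limma adjusted p of 0.848. Single lines moved this difference, which was 0.0036 without Low replicate 4, 0.14 without High replicate 4 and 0.15 with clones blocked by the first digit of their names. Here and below, that block rests only on High replicates 2 and 3 and Low replicates 4 and 5. Their names start with 4, and no other digit holds both classes. The lines spanned 0.56, or 1.47-fold from the lowest to the highest, and all 10 lay above the 25th percentile of their arrays.

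Cdkn2b, the neighbouring INK4 gene, which TGF-beta is known to induce, measured 11.46, 11.10, 11.18, 11.08 and 11.45 in High lines, against 11.15, 11.26, 11.39, 10.95 and 11.38 in Low lines. Low replicate 4 was again lowest, and High replicates 1 and 5 were highest. The difference of 0.027 (95% confidence interval -0.21 to 0.26) had a limma adjusted p of 0.951. Both INK4 genes have closely similar coding exons, and whether probes of one also read the other was not tested.

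The genes around the locus on chromosome 4 were measured to see whether the region moved as a block. Of 14 listed neighbours, all had a probe set of their own and 12 passed the filter, with Lrrc19 and Eqtn below it. Mtap, the nearest listed gene on one side and an enzyme of methionine salvage, measured between 12.01 and 12.36 in High lines and between 12.14 and 12.28 in Low lines. Dmrta1, the nearest on the other side, lay just above the filter at 6.56 to 6.95 in High lines and 6.54 to 6.81 in Low lines. Mllt3, Focad, Hacd4, Klhl9, Elavl2, Tusc1, Caap1, Plaa, Ift74 and Tek were the others, and differences over the 12 ran from -0.22 to 0.095 with 0 of 12 at an unadjusted limma p under 0.05 (smallest 0.186). Pearson's r with Cdkn2a over the 10 lines was between -0.52 and 0.59 for the 14 neighbours and 0.84 for Cdkn2b. The median deviation of the 50 nearest tested genes stayed between -0.053 and 0.036 in every line. These correlations are descriptions over arrays that share 1 normalization.

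**Figure D2:**
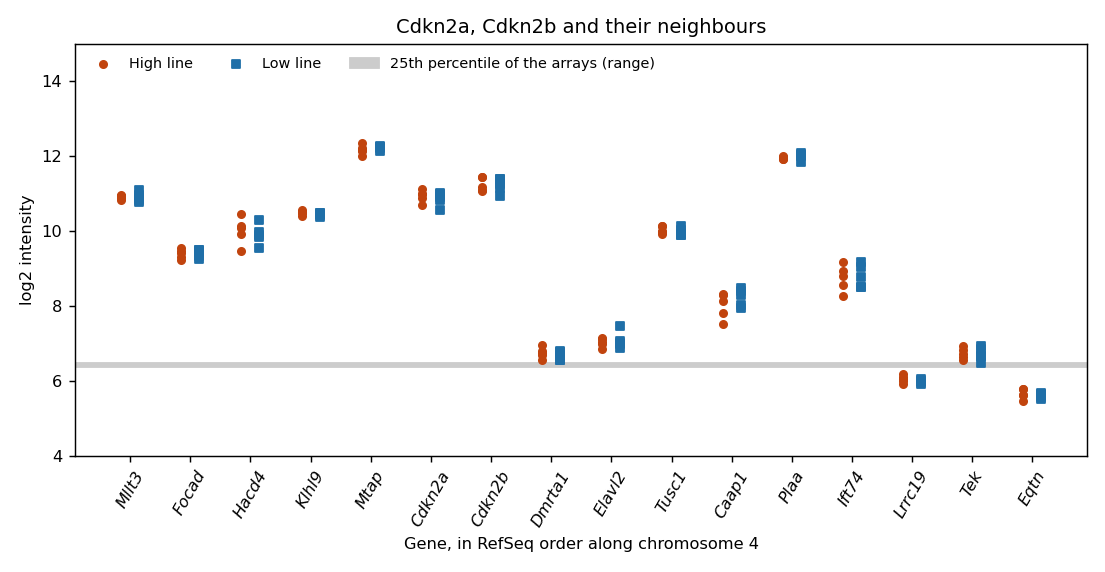
Log2 intensity (vertical axis) of Cdkn2a, Cdkn2b and 14 neighbouring genes in RefSeq order along chromosome 4 (horizontal axis), 1 point per line, High lines as circles and Low lines as squares. The grey band is the range of the arrays' 25th percentiles, and Cdkn2a lies between 10.56 and 11.11, far above it. Signals of different genes come from different probes and are not to be ranked.

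The other kinase inhibitors did not separate the classes either. Cdkn1b, which encodes p27, measured 11.86, 12.10, 12.15, 11.54 and 11.61 in High lines and 11.86, 11.53, 11.76, 11.83 and 11.76 in Low lines. High replicates 2 and 3 were the highest of all and High replicate 4 was next to the lowest, so the High lines alone reached nearly across the range of all 10. The difference was 0.10 (95% confidence interval -0.16 to 0.37), with a limma adjusted p of 0.837. It was 0.33 with clones blocked by first digit, 0.024 relative to its 50 neighbours, 0.031 without High replicate 3 and 0.18 without High replicate 4. A dimmer probe set of Cdkn1b differed by 0.079 and spanned 1.06 over the lines, against 0.62 for the brighter one.

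Cdkn2c, which encodes the INK4 inhibitor p18, measured 10.40, 10.56, 10.55, 10.02 and 10.01 in High lines, against 10.56, 10.24, 10.48, 10.47 and 10.39 in Low lines. High replicates 4 and 5 were lowest, and the other 3 High lines lay within the Low range. Its difference of -0.12 had a limma adjusted p of 0.82, and with the first-digit block it was 0.13. Cdkn2d, which encodes p19 of the same family, ranged from 8.56 to 9.14 in High lines and from 8.64 to 8.87 in Low lines, with a difference of 0.077 (limma adjusted p = 0.847). This was 0.00078 without High replicate 1, 0.15 without High replicate 5 and 0.20 with the first-digit block.

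All 3 pocket protein genes had differences below 0, under each of the 20 alternatives run as well, and 0 of 3 passed (0 also at an unadjusted limma p under 0.05). Rbl2, which encodes p130, the pocket protein typical of resting cells, measured 10.11, 9.54, 9.73, 9.85 and 9.91 in High lines and 9.80, 10.32, 10.03, 9.95 and 9.96 in Low lines. High replicate 2 was lowest and Low replicate 2 highest, and 3 High lines lay above the lowest Low value. The difference was -0.18 (95% confidence interval -0.43 to 0.067), with an unadjusted p of 0.137 and a limma adjusted p of 0.74. Rbl2 is on chromosome 8, and relative to the median of the 50 genes nearest to it the difference was -0.16. It was -0.11 without High replicate 2 and also without Low replicate 2, and -0.32 with the first-digit block.

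Rbl1, which encodes p107, the pocket protein of dividing cells, measured 10.54, 11.04, 10.77, 10.53 and 10.59 in High lines and 10.95, 10.73, 10.80, 11.03 and 10.82 in Low lines. High replicates 1, 4 and 5 lay below every Low line, while High replicate 2 was the highest of all 10. Its difference of -0.17 (95% confidence interval -0.39 to 0.052) had a limma adjusted p of 0.725, and with the first-digit block it was -0.017. Rb1 measured 9.66, 9.37, 9.44, 9.17 and 9.45 in High lines and 9.24, 9.76, 9.61, 9.77 and 9.51 in Low lines. Its difference was -0.16, with a limma adjusted p of 0.775, and Low replicate 1, at 9.24, lay below all High lines but replicate 4. Without High replicate 4 the Rb1 difference was -0.098, and without Low replicate 1 it was -0.24.

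Mdm2 and Ccng1 are targets of p53 that act back on it. Mdm2, the ubiquitin ligase that degrades p53, measured 13.63, 13.84, 13.81, 13.69 and 13.74 in High lines and 13.69, 13.70, 13.60, 13.74 and 13.69 in Low lines. Its SD over the 10 lines was 0.074, and 6.51% of tested genes had a lower one, and its difference of 0.056 had a limma adjusted p of 0.827. The lowest and highest lines were 0.24 apart. Ccng1, which encodes cyclin G1, measured 13.27, 13.13, 13.22, 12.96 and 13.39 in High lines and 13.17, 13.29, 13.29, 13.10 and 13.29 in Low lines. High replicate 4 was lowest and High replicate 5 highest, and the difference of -0.033 had a limma adjusted p of 0.921.

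Among the 12 growth arrest and stress targets, 8 differences were above 0 and 4 below, from -0.055 to 0.23, and 0 had an unadjusted limma p under 0.05. Btg2, an antiproliferative gene that p53 and growth factors both induce, measured 9.01, 8.29, 8.88, 8.54 and 8.86 in High lines, against 8.39, 8.60, 8.79, 8.05 and 8.57 in Low lines. Low replicate 4 was lowest and High replicate 1 highest, 0.96 apart. The difference of 0.23 (95% confidence interval -0.11 to 0.57) was the largest of these 12 and had a limma adjusted p of 0.763. Leaving out Low replicate 4 gave 0.12.

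Trp53inp1, which encodes a p53-induced nuclear protein of stress and autophagy, measured 11.13, 10.16, 10.94, 10.39 and 11.12 in High lines and 10.49, 10.53, 11.17, 10.13 and 10.79 in Low lines. Both classes held high and low lines, with Low replicate 4 and High replicate 2 lowest and Low replicate 3 and High replicates 1 and 5 highest. The range of 1.04, or 2.06-fold, compared with a difference of 0.12 between the classes (limma adjusted p = 0.889). That difference was 0.0014 without Low replicate 4 and 0.27 without High replicate 2.

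Gadd45a, a sensor of DNA damage stress, measured 9.13, 8.71, 8.85, 8.63 and 8.60 in High lines and 8.28, 8.78, 8.81, 8.96 and 8.69 in Low lines. Sesn2, a sestrin that restrains mTORC1 under stress, measured 10.64, 10.41, 10.43, 10.16 and 10.20 in High lines and 9.83, 10.30, 10.29, 10.57 and 10.59 in Low lines. In both genes Low replicate 1 was lowest and High replicate 1 highest, and both differences turned below 0 when either of these lines was left out. The differences were 0.082 for Gadd45a and 0.054 for Sesn2, with limma adjusted p values of 0.876 and 0.925.

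The related Gadd45b and Gadd45g differed by -0.029 and 0.044, and Sesn1, a sestrin induced by p53, by -0.027. Plk2, a polo-like kinase induced by p53 and by serum, ranged from 11.36 to 11.97 in High lines and from 11.27 to 11.71 in Low lines, with a difference of 0.14 (limma adjusted p = 0.802) that was 0.060 without High replicate 5, 0.21 without High replicate 4 and 0.061 with the first-digit block. Btg1, an antiproliferative relative of Btg2, ranged from 12.19 to 12.35 in High lines and from 12.09 to 12.22 in Low lines. Its difference of 0.079 had a limma adjusted p of 0.783, and its SD over the 10 lines was 0.073. Phlda3, a p53 target that restrains Akt, differed by 0.075, and the RNA-binding p53 target Zmat3 by -0.055. Ddit4l, a relative of the mTOR inhibitor Ddit4, differed by -0.0056, with a dim signal that lay below the medians of all arrays.

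The 4 genes of cell death had differences above 0, and 0 of 4 had an unadjusted limma p under 0.05. With the first-digit block, which rests on High replicates 2 and 3 and Low replicates 4 and 5, 3 of the 4 turned. The differences were then -0.042 in Pmaip1, -0.057 in Fas and -0.0045 in Perp. High replicate 4, the array least like the others, was the highest line for Bbc3, Pmaip1 and Perp. Without it the differences were 0.090 in Bbc3, 0.0057 in Pmaip1 and -0.021 in Perp. Bbc3, which encodes the BH3 protein Puma, measured 7.71, 7.71, 7.64, 7.84 and 7.59 in High lines and 7.50, 7.74, 7.56, 7.57 and 7.50 in Low lines. Low replicate 2 alone reached the High range, and the other 4 Low lines lay below all 5 High lines. The difference was 0.13 (95% confidence interval -0.023 to 0.27) and amounted to 1.09-fold. It had an unadjusted p of 0.0913 and a limma adjusted p of 0.695. After repeated quantile normalization the Bbc3 difference was 0.077. The signal of Bbc3 lay near the medians of the arrays, which were 7.74 to 7.84, and the stricter filter left this gene out.

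Fas, the death receptor gene, measured 9.19, 8.39, 8.54, 8.29 and 9.25 in High lines and 8.28, 8.44, 8.91, 8.06 and 8.99 in Low lines. High replicates 1 and 5 and Low replicates 3 and 5 were high, and the remaining 6 lines were between 8.06 and 8.54. The lines spanned 2.27-fold, and the difference of 0.20 (95% confidence interval -0.30 to 0.69) had a limma adjusted p of 0.835. It ran from 0.067, without High replicate 5, to 0.31, without Low replicate 5. Pmaip1, which encodes the BH3 protein Noxa, differed by 0.067, and Perp, a p53 target of cell adhesion, by 0.021. Pmaip1 stayed between 7.24 and 7.64 and Perp between 6.68 and 7.04 in the 10 lines. Both signals were dim, below the medians of all arrays, and the stricter filter left both genes out.

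Gas6, a growth arrest-specific ligand of the TAM receptor kinases, had the largest difference of the 28 members. It measured 12.63, 11.55, 12.04, 12.29 and 11.66 in High lines, against 11.18, 11.70, 12.10, 11.38 and 11.61 in Low lines. High replicates 1 and 4 exceeded every Low line, while High replicates 2, 3 and 5 lay inside the Low range and Low replicate 1 was lowest of all. The High mean was 12.04 ± 0.45 and the Low mean 11.60 ± 0.35 (SD, n = 5 each), 1.36-fold apart. The limma difference was 0.44 (95% confidence interval -0.023 to 0.90), with an unadjusted p of 0.0605 and an adjusted p of 0.649. It ran from 0.29, without High replicate 1, to 0.57, without Low replicate 3, and was 0.30 with the first-digit block. Gas6 is on chromosome 8 like Rbl2, and relative to its 50 neighbours it differed by 0.49. Gas2, a growth arrest-specific cytoskeletal gene, ranged from 11.34 to 11.60 in High lines and from 11.10 to 12.03 in Low lines, with Low replicate 2 highest. Its difference of 0.10 had a limma adjusted p of 0.868, and was 0.026 without Low replicate 5, 0.26 without Low replicate 2 and 0.33 with the first-digit block.

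Variation between clones differed widely among the members. Their SD over the 10 lines ran from 0.073 to 0.44, with a median of 0.21, against a median of 0.14 over all tested genes. Gas6, Fas, Trp53inp1, Btg2 and Gas2 were in the top 10% of tested genes by this SD, and Mdm2 and Btg1 were in the bottom 10%. The class accounted for a median of 6.60% of a member's variance, against 8.26% over all tested genes. It reached 35.3% in Bbc3, 32.2% in Btg1 and 27.4% in Gas6 and stayed at 2.70% in Trp53inp1 and 6.20% in Fas.

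**Figure D3:**
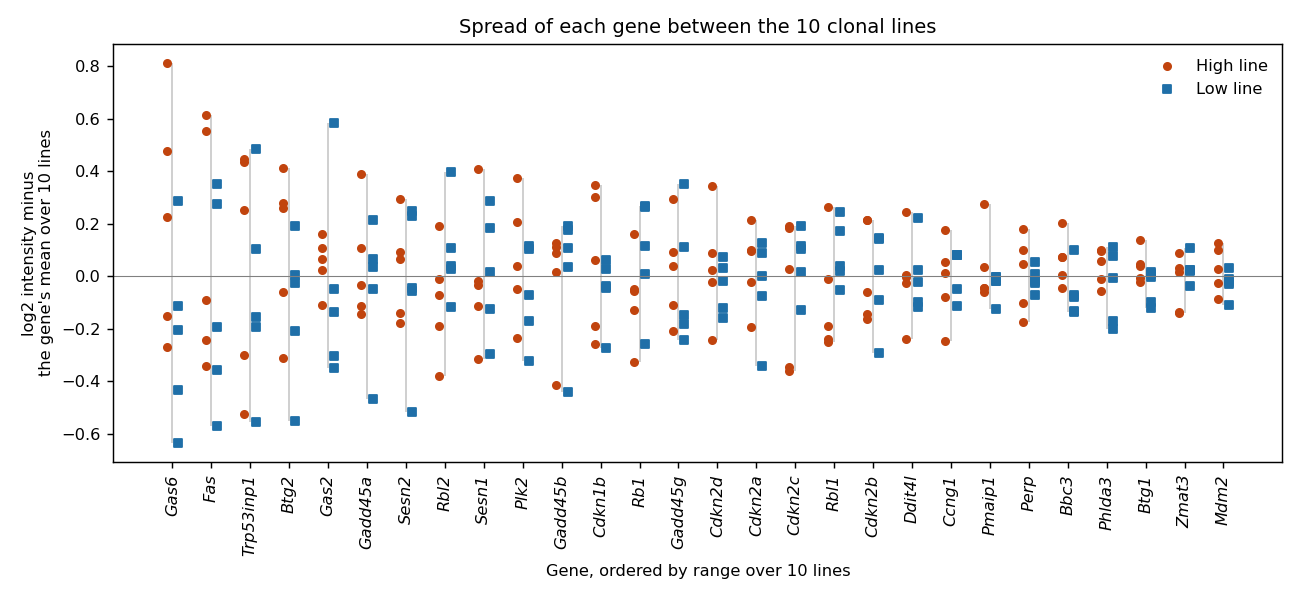
Log2 intensity of each measured member minus its mean over the 10 lines (vertical axis), with genes ordered by their range over the lines (horizontal axis). Circles are High lines and squares are Low lines. The range falls off from 1.45 in Gas6 to 0.24 in Mdm2, and both classes are mixed in every gene.

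Correlations between members across the 10 lines asked whether the genes of the pathway went up and down together from clone to clone. All 378 pairs of members were examined, in place of pairs with Cdkn1a, which has no value of its own here. Of these, 10 pairs, or 2.65%, had a Pearson's r of at least 0.8, against 2.07% of all pairs of tested genes, and 1 pair, or 0.265%, had an r of -0.8 or less, against 0.836%. At an r of at least 0.7 there were 25 pairs, or 6.61%, against 5.13%, and at -0.7 or less there were 3, or 0.794%, against 2.75%. At least 0.9 was reached by 2 pairs, or 0.529%, against 0.328%, and -0.9 or less by 0 pairs, against 0.0888%. The positive shares were near those of genes at large.

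The strongest pair was Cdkn2b with Fas, with r = 0.96 (permutation p = 4e-05, adjusted p = 0.0151 over 378 pairs) and Spearman's rho = 0.93 (permutation p = 0.00037, adjusted p = 0.106). Without Low replicate 4 and High replicate 1, the lines farthest from the median of Cdkn2b, r was 0.94, and with any 1 line left out it was at least 0.95. The next was Btg2 with Trp53inp1, with r = 0.92 (permutation p = 0.00024, adjusted p = 0.0454) and rho = 0.89 (permutation p = 0.00112, adjusted p = 0.106). Without the 2 lines farthest from the median of Btg2, again Low replicate 4 and High replicate 1, that r was 0.90. The number of pairs past the threshold was 0 without High replicate 1, 2 or 5 or Low replicate 3 or 4, 1 without High replicate 4 or Low replicate 1 or 2, and 0 relative to the 50 neighbouring genes, where r was still 0.92 and 0.91 for these 2 pairs. It was 4 without High replicate 3 and 4 with class means removed. The test with class means removed shuffled all lines freely, with no allowance for the removed means, so its count is not like for like. These 2 pairs were the only ones of the 378 past the threshold. With rho 0 passed, and 35 had an unadjusted p of rho under 0.05. These permutation p-values set a pair against shuffled lines, not against other pairs of genes. The share of all pairs of tested genes with such p-values was not computed. An r of at least 0.9 was reached by 0.328% of all pairs of tested genes, against 0.529% of member pairs. The p-values alone therefore do not set these 2 pairs apart from pairs of genes at large.

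Further pairs among these 4 genes, Cdkn2a and Ccng1 did not pass. Trp53inp1 had an r of 0.89 with Cdkn2b (permutation adjusted p = 0.108) and 0.88 with Fas (permutation adjusted p = 0.108). Cdkn2a had an r of 0.84 with Cdkn2b (permutation adjusted p = 0.108) and 0.84 with Ccng1 (permutation adjusted p = 0.125), with rho of 0.79 and 0.85. Without the 2 lines farthest from the median of Cdkn2a, Low replicate 4 and High replicate 4, these were 0.67 and 0.82. In Cdkn2a, Cdkn2b, Fas, Trp53inp1 and Btg2 the lowest line was Low replicate 4, and High replicate 5 was among the 3 highest lines in all 6 genes. With the class means removed, r was 0.97 for Cdkn2b with Fas and 0.95 for Btg2 with Trp53inp1. Cdkn2a, Cdkn2b and Trp53inp1 are all on chromosome 4. Relative to the 50 neighbours of each gene, r was 0.85 for Cdkn2a with Cdkn2b and 0.88 for Cdkn2b with Trp53inp1.

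**Figure D4:**
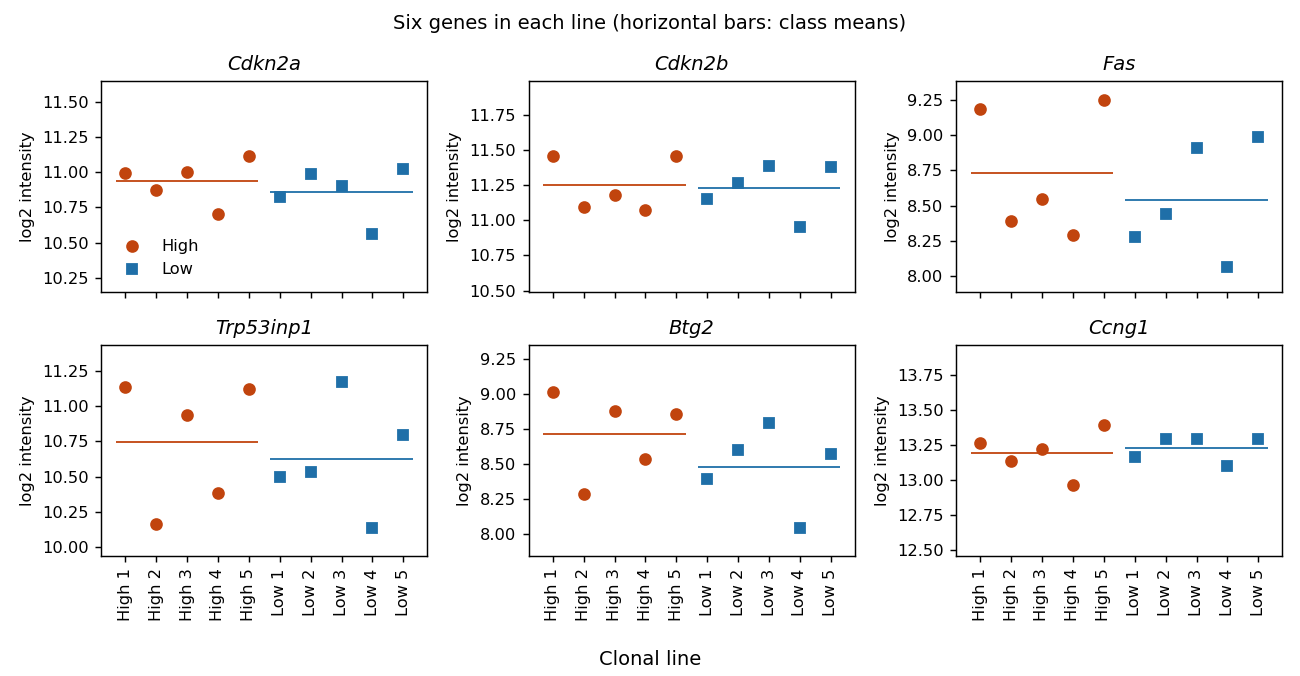
Log2 intensity (vertical axis) of Cdkn2a, Cdkn2b, Fas, Trp53inp1, Btg2 and Ccng1 in each line (horizontal axis), High lines as circles and Low lines as squares, with bars at the class means. Axes span the same log2 width, and Low replicate 4 is the lowest line in 5 of the 6 genes.

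A further pair of stress genes, Gadd45a with Sesn2, had an r of 0.87 (permutation adjusted p = 0.108), but 0.59 without High replicate 1 and Low replicate 1, and rho was 0.76. Cdkn1b and Cdkn2c had an r of 0.82 (permutation adjusted p = 0.164), and 0.97 with the class means removed. Among the negative pairs, Phlda3 with Rbl1 was lowest at -0.80 (permutation adjusted p = 0.169).

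**Figure D5:**
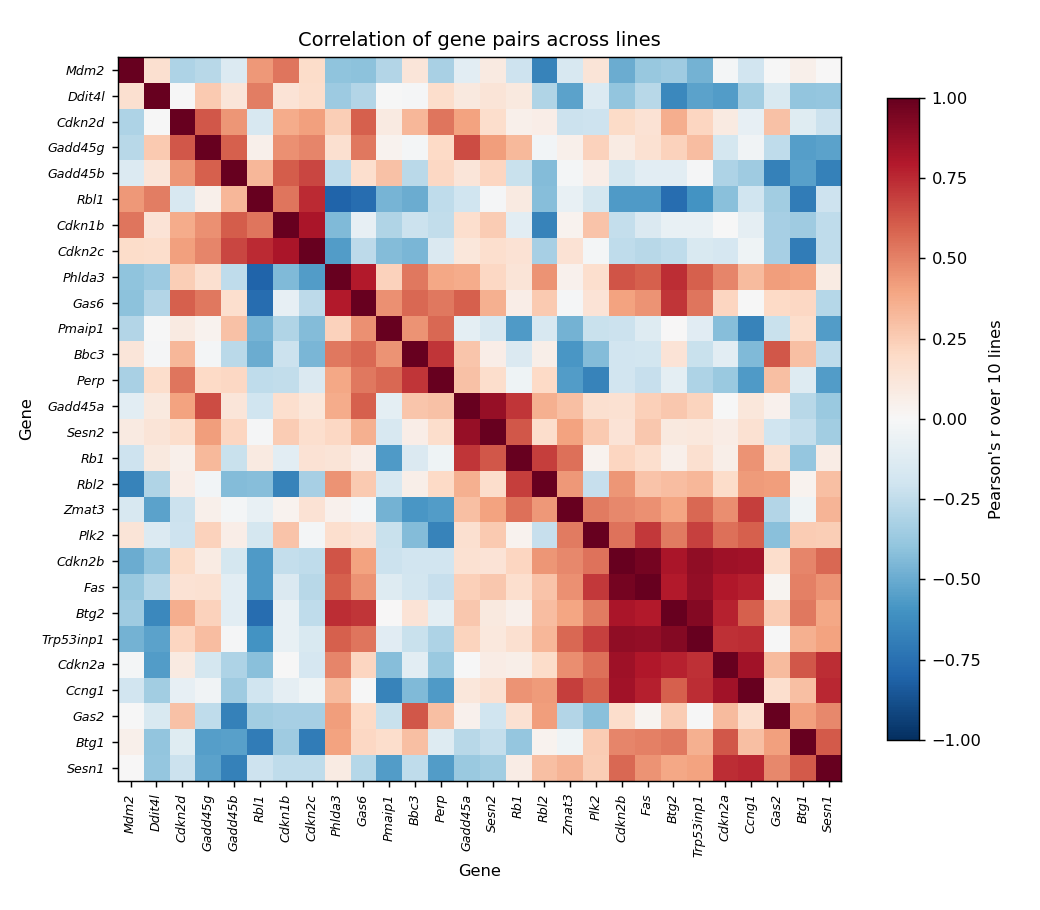
Pearson's r over the 10 lines for each pair of the 28 members (both axes list genes, ordered by average linkage on 1 minus r). Red is positive and blue negative, and Cdkn2b with Fas, at 0.96, is the highest pair.

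Single lines took the extremes unevenly. High replicates 1 and 5 were each the highest line for 6 of the 28 members, or 21.4%, against 10.4% and 7.35% of all tested genes. Low replicate 4 was lowest for 6 members, or 21.4%, against 10.9% of tested genes. These were Btg1 and the correlated genes Cdkn2a, Cdkn2b, Fas, Trp53inp1 and Btg2 described above, so the 6 are not separate observations. Other lines came close, with Low replicates 1 and 2 each lowest for 5, or 17.9%, against 10.8% and 11.3%. Low replicate 3 was highest for 4, or 14.3%, against 4.99%. High replicate 4 was highest for 28.9% of all tested genes but for 3 members, or 10.7%. That array also had the lowest mean correlation with the others, 0.987 against 0.991 to 0.993, and its deviations from the gene means followed brightness across genes with r = -0.37. Median log2 intensities of the 10 arrays were between 7.74 and 7.84.

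Other genes of these pathways were read from 8 companion lists. Of 153 different genes tested, 0 passed an adjusted p of 0.05 in limma, and 9 had an unadjusted p under 0.05, with 3 higher in High lines and 6 lower, where 7.95% of all tested genes had one. Of 31 other p53 targets, 16 differences were above 0 and 15 below, with a median of 0.0040. Epha2, an ephrin receptor gene, averaged 10.54 ± 0.07 in High and 10.74 ± 0.08 in Low lines (SD, n = 5 each), with all High lines below all Low lines and a limma adjusted p of 0.417. It was the 1 gene of the 153 whose classes did not overlap, where 1.57% of all tested genes had no overlap. Steap3, a ferrireductase gene, averaged 11.65 ± 0.13 in High and 11.44 ± 0.15 in Low lines (SD, n = 5 each; limma adjusted p = 0.574). Of 18 p53 regulators and DNA damage kinases, 0 had an unadjusted limma p under 0.05, and their median difference was -0.019.

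Directions in the lists below stand beside those of all tested genes, of which 58% were above 0, with a median of 0.021. In the list of E2F, cyclin D and CDK partners of the pocket proteins, 19 of 26 differences were below 0, with a median of -0.041. E2f4, the E2F that pairs with p130 in resting cells, averaged 12.04 ± 0.18 in High and 12.32 ± 0.15 in Low lines (SD, n = 5 each), with a limma adjusted p of 0.481, and it too is on chromosome 8. Among 20 regulators of the Cdkn2a locus, 5 differences were above 0 and 15 below. Bhlhe40, a transcriptional repressor, differed by 0.40 (limma adjusted p = 0.515) and Tbx3, a T-box repressor, by -0.15 (limma adjusted p = 0.593). Of 19 proliferation genes, 10 were above 0 and 9 below with a median of 0.016. Ccnb2 differed by 0.18 and Mcm5, on chromosome 8 like E2f4, by -0.17. Among 15 immediate early genes, which answer to serum, 11 were below 0, and Dusp1 differed by -0.27 (limma adjusted p = 0.574). Of 15 other growth arrest genes 10 were above 0, and Ing1, on chromosome 8, differed by -0.21.

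Markers of cell types were read as a check of the label. All 9 measured preadipocyte fibroblast markers passed the filter, and their summed linear signal was 60510 to 66804 in High and 60507 to 64650 in Low lines. All 6 epithelial markers passed it too, as did 4 of 5 measured for endothelium, 3 of 6 for leukocytes and 3 of 5 for mature adipocytes. Passing the filter therefore does not tell cell types apart. Of the markers of mature adipocytes, Adipoq and Lep were below the filter, as were Ptprc, Adgre1 and Itgam of leukocytes and Emcn of endothelium. The sums of epithelial markers were 1011 to 1210 in High and 1003 to 1057 in Low lines, those of macrophage and leukocyte markers 979 to 1100 in High and 908 to 1074 in Low lines, those of endothelial markers 578 to 687 in High and 567 to 622 in Low lines, and those of mature adipocyte markers 713 to 895 in High and 725 to 800 in Low lines. The part of other cells in these results was not tested.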

How the data were processed

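The authors deposited log2 intensities of 34760 probe sets on 10 arrays. Per the submitters' processing notes they were made with RMA. Its version and settings, and whether arrays were run in batches, were not stated in the labels. RMA aligns the distributions of the arrays, which removes a shift common to most genes. Per the labels' protocols, total RNA was copied into sense-strand cDNA and labelled with biotin. The platform annotation listed 22961 probe sets, of which 21640 carried 1 gene symbol and 1321 several. They stood for 19937 genes, 19854 of which matched the RefSeq table of GRCm38.p6 by gene ID. The brightest probe set over all 10 arrays stood for its gene.

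High was compared with Low in limma 3.58.1 (lmFit and eBayes, R 4.3.3), two-sided, with Benjamini-Hochberg adjustment over 16339 genes and a threshold of 0.05. Each difference is the High mean minus the Low mean. No member fell to the filter, so none needed an exact test. Pairs of members were tested with 100000 permutations, adjusted over 378 pairs. The pairs and their alternatives were chosen after seeing the data, once Cdkn1a was found to have no value. Both tests were tried on simulated data with planted differences and tightly linked pairs. This checked the code and does not measure how often weaker changes or links in these data would be found. Python 3.11.15, pandas 2.3.3, numpy 2.4.6 and matplotlib 3.10.9 were used. Named genes are all members, the neighbours of Cdkn2a, and up to 4 genes of each companion list with an unadjusted p under 0.05. The members and lists were chosen with earlier results of these data known, and the 6 genes plotted by line were chosen after their correlations were seen. Precision is set by the number of arrays. Nothing says whether lines were grown or hybridised together, so p-values measure only the spread between these samples. Alternatives covered the filter, probe sets, normalization, variance models, array weights, the leading digit of the clone name, neighbouring genes and single lines.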

Additional observations from a re-analysis of the deposited data

Results flagged for a closer look

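A line was looked for that lay far from the other 4 of its class, by its gap to the nearest line over the class range (limit 0.71 for 5 values). Of 74 sets of 5 values, 5 had such a line, where about 3.7 arise by chance. Gadd45b, a stress and cytokine response gene, had 1 in each class. High replicate 5 measured 9.91, where the other High lines lay at 10.35 to 10.46. Low replicate 2 measured 9.89, against 10.36 to 10.52 in the other Low lines. High replicate 4 measured 7.64 for Pmaip1, against 7.31 to 7.40 in the other High lines. Low replicate 2 also stood apart for both BH3 genes, at 7.74 for Bbc3, against 7.50 to 7.57, and at 7.24 for Pmaip1, against 7.35 to 7.36.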

How the results depend on the processing

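No member passed the threshold under the 20 alternatives run, and no companion gene did under those run for it (the block and the neighbour correction were not). Over all genes, the 1 call became 2 with an intensity trend, 3 with array weights and 0 with clones blocked by the first digit of their names. With 1 line left out it ran from 1 to 19, the 19 without High replicate 5. Of 556 member differences recomputed, 522 kept their sign, and 34 turned, in 12 members whose differences were at most 0.20. With the digit block, Cdkn2b was -0.026, Cdkn2c 0.13, Gadd45a -0.046, Gadd45b 0.00079, Sesn1 0.067, Sesn2 -0.16, Pmaip1 -0.042, Fas -0.057 and Perp -0.0045. This block rests on the names starting with 4, 2 High and 2 Low, since no other digit holds both classes. With array weights Sesn1 was 0.0075 and Ddit4l 0.014, with neighbours subtracted Ddit4l was 0.0029, and Perp was -0.029 after repeated quantile normalization and -0.0057 after median centring. With 1 line left out, the differences ran from -0.042 to 0.072 for Cdkn2b, from -0.082 to 0.025 for Ccng1, from -0.025 to 0.15 for Gadd45a, from -0.14 to 0.071 for Gadd45b and from -0.024 to 0.14 for Gadd45g. They ran from -0.13 to 0.048 for Sesn1, from -0.068 to 0.12 for Sesn2, from -0.021 to 0.067 for Perp and from -0.068 to 0.054 for Ddit4l. The stricter filter left out Bbc3, Pmaip1, Perp and Ddit4l.

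The count of 2 pairs past the threshold was not stable, and the share of all pairs of tested genes passing the same test was not computed. It was 0 with Spearman's rho and 4 with class means removed, a test that made no allowance for the removed means. The count was 0 with the 50 neighbouring genes subtracted, where r was 0.92 for Cdkn2b with Fas and 0.91 for Btg2 with Trp53inp1. With 1 line left out it ran from 0 to 4, with 0 without High replicate 1, 2 or 5 or Low replicate 3 or 4, 1 without High replicate 4 or Low replicate 1 or 2, and 4 without High replicate 3. The cause was not tested. The planned correlations with Cdkn1a were not run, since its probe set names a further gene. No paired analysis was possible because each array is a separate clone and the labels link no High line to a Low line. The labels give no replicate numbers, and those used here follow the order of the samples within each class.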
